A study of Mus musculus with 10 samples.

Results

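The genes described here are those of the core of RNA interference and microRNA processing in the mouse oocyte. They are Drosha and Dgcr8, Xpo5, Dicer1 and Tarbp2, and the Argonaute genes Ago1, Ago2, Ago3 and Ago4. The genes were chosen by symbol from a fixed list and not by their values, though earlier results of these data were known. They account for 9 of 24453 gene symbols and 13 of 34768 RefSeq transcripts in the deposited table, and 7 of the 9 passed the filter on low values.

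RNA was profiled from germinal vesicle (GV) oocytes of 10 C57Bl/6J mice, 1 pool of 16 oocytes stripped of their cumulus cells per mouse, so that replicates are separate animals. GV oocytes are full grown and paused before the first meiotic division, and isolation kept them there with 2.5 mM milrinone, a phosphodiesterase inhibitor. The mutant group, 4 mice labelled F/-; ZP3-cre, carried a floxed and a deleted allele of Setdb1, a methyltransferase for lysine 9 of histone H3, together with a Cre transgene driven by the zona pellucida 3 promoter, which is active in growing oocytes. Of the 6 control mice, 4 were F/+; ZP3-cre, in which a wild-type allele took the place of the deleted one beside the same transgene, and 2 were F/-, with the mutant's alleles but no Cre. The controls thus differ in what remains intact, the floxed allele in F/- oocytes and the wild-type allele in F/+; ZP3-cre oocytes once Cre has acted. The sources used here do not name the floxed exon, and oocytes that escaped Cre cannot be counted in a pool.

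In the microRNA pathway, the microprocessor of DROSHA and DGCR8 cuts hairpins from nuclear transcripts, exportin 5 carries them to the cytoplasm, and DICER with its partner TRBP (the product of Tarbp2) trims them to short duplexes. Argonaute proteins take up a strand of the duplex and use it to find target RNAs. Mouse oocytes also make endogenous small interfering RNAs (endo-siRNAs) from long double-stranded RNA, which needs DICER and AGO2 but not the microprocessor, and loss of Dicer1 or Ago2 in oocytes is known to disturb meiosis, while loss of Dgcr8 is tolerated. Rodent oocytes make much of their DICER as a shortened form from an alternative promoter in an intron. The table holds 1 Dicer1 transcript, so the forms could not be separated.

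Setdb1, read over its whole transcript, stood at 1.31 to 4.06 RPKM (a read count divided by transcript length and by the reads of the library) in the mutant libraries and at 19.9 to 52.5 RPKM in the control libraries, a mutant mean of 9.47% of the control mean (exact two-sided permutation p = 0.004762, the smallest the 210 splits allow). The spacing of low values put the libraries at about 45.6e6 to 72.4e6 reads. The 9 oocyte markers summed to 4841 to 4960 RPKM in mutants and 4868 to 6377 RPKM in controls. Of 11 granulosa and cumulus markers, 4 (Foxl2, Amh, Amhr2 and Wt1) stayed below 1 RPKM in every library, and the sum was 78.0 to 111 RPKM in mutants and 76.2 to 103 RPKM in controls. Most of that sum came from Serpine2 (49.3 to 82.8 RPKM), Nr5a2 (8.04 to 18.4 RPKM) and Cyp19a1 (3.78 to 10.9 RPKM). Ptgs2 stood at 1.11 to 2.45 RPKM in mutants, 0.210 to 0.663 RPKM in F/+; ZP3-cre and 0.742 and 1.78 RPKM in F/-. Of 7 theca and stroma markers, Cyp17a1 and Lhcgr were listed at 0 in all 10 libraries and Hsd3b1 stood at 0.497 to 3.28 RPKM, with sums of 0.878 to 3.29 RPKM in mutants and 1.34 to 3.93 RPKM in controls. All but Hsd3b1 stayed below 1 RPKM in every library. Cyp11a1 stood at 0 to 0.0577 RPKM in mutants and 0.0900 to 0.810 RPKM in controls, and Pdgfra at 0 to 0.00280 and 0.0665 to 0.295 RPKM. Star (0.00444 to 0.902 and 0 to 0.252 RPKM) and Col1a1 (at most 0.00979 RPKM) overlapped. Of 10 blood, immune and endothelial markers, Hba-a1 and Hbb-b1 were listed at 0 in all libraries. Ptprc, Csf1r and Cd34 also stayed below 1 RPKM in every library, while Pecam1 stood at 7.14 to 27.1 RPKM and C1qb at 10.8 to 19.9 RPKM. The sums of the 10 markers were 22.1 to 42.8 RPKM in mutants and 29.9 to 46.8 RPKM in controls. Cd68 reached 7.99 and 7.16 RPKM in mutant replicates 1 and 3. Markers under the filter on low values were not tested. In the order given above, limma tested 9 of 9, 7 of 11, 1 of 7 and 5 of 10 markers. None of the tested markers passed between mutants and all controls. Cyp11a1 and Pdgfra, in which all mutants lay below all controls, were among those not tested. Against F/- alone Zp1 was lower in mutants (log2 difference -0.45, limma adjusted p = 0.0186). The part of other cells in the results was not tested.

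The 9 transcripts covered a wide range of levels, and several steps in their order held in every oocyte pool. Dicer1 led with a mean of 75.4 ± 8.23 RPKM (SD, n = 10), higher than 98.1% of the gene symbols in the table. Ago3 (14.9 ± 2.65), Drosha (13.7 ± 2.00) and Xpo5 (13.2 ± 3.23) formed a middle group. Dgcr8 (3.01 ± 0.836), Ago2 (2.20 ± 0.497) and Tarbp2 (1.46 ± 0.511) lay lower, and Ago4 (0.178) and Ago1 (0.10) were at or below the 46.3 percentile of all symbols. These levels are per length of transcript.

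Neighbours in that order were compared within each library by an exact two-sided sign-flip permutation test over the 10 libraries, with p-values adjusted over the 8 pairs. The pairs follow from the means of these same libraries, so the p-values describe how steady each step was and are not independent tests of the order. Dicer1 exceeded Ago3 in 10 of 10 libraries, 5.06-fold in the means (exact adjusted p = 0.005208). Xpo5 exceeded Dgcr8 4.39-fold and Tarbp2 exceeded Ago4 8.20-fold, each in 10 of 10 libraries and with the same exact adjusted p. Ago2 was above Tarbp2 in 8 of 10 libraries, 1.50-fold (exact adjusted p = 0.025), and Ago4 above Ago1 in 9 of 10 (exact adjusted p = 0.007812). Ago3, Drosha and Xpo5 did not differ beyond their spread, with Ago3 above Drosha in 7 and Drosha above Xpo5 in 6 of 10 libraries (exact adjusted p = 0.516 and 0.535). Dgcr8 and Ago2 also did not, with Dgcr8 higher in 8 of 10 libraries (exact adjusted p = 0.0938).

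**Figure D1:**
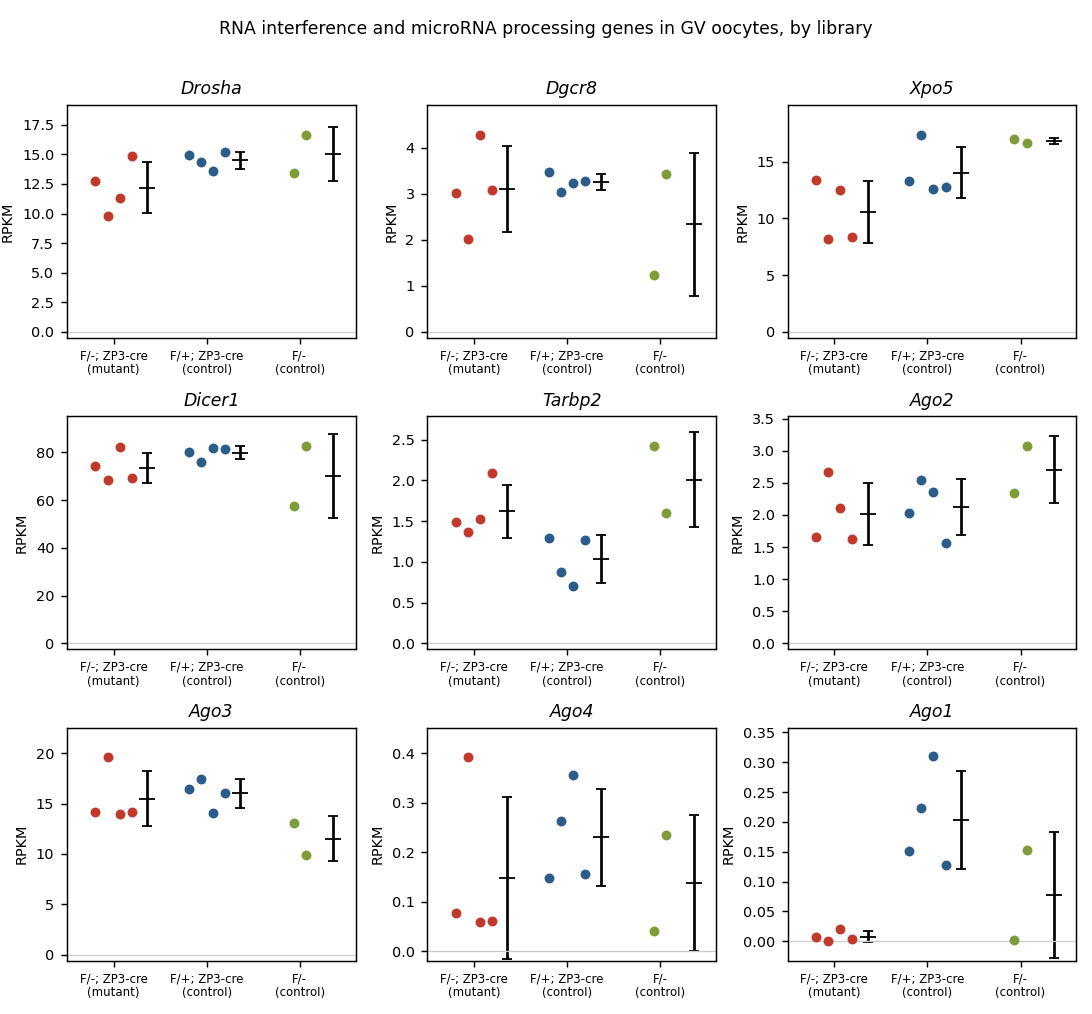
RPKM of the 9 genes in each of the 10 oocyte libraries (points), by genotype, with the mean and SD of each group beside the points; the vertical scale is linear and differs between panels. Mutants and all controls overlap in every panel, Tarbp2 is above all F/+; ZP3-cre points in the 4 mutants, and Ago1 lies between 0 and 0.0203 RPKM in the mutants.

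The main comparison asked whether loss of Setdb1 during oocyte growth changed these genes. Tests were run with limma on log2(RPKM + 0.5) across 11338 genes, with an adjusted p below 0.05 as the threshold. None of the 7 tested genes passed, where 5.33% of all tested genes did (3.10% higher and 2.22% lower in mutants). At an unadjusted p below 0.05 the count was 1 of 7, Xpo5, against 19.8% of all genes. Mutants and all controls overlapped in all 7 tested genes, where 8.18% of tested genes were without overlap. They also overlapped in Ago1 and Ago4, which were under the filter. The median log2 difference of the 7 was -0.05, against 0.03 over all genes.

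Each control group gave the same count of 0. Against F/+; ZP3-cre, 0 of 7 passed and 0 had an unadjusted p below 0.05, where 4.89% and 19.2% of all genes did. Against F/-, 0 of 7 passed and 1, again Xpo5, had an unadjusted p below 0.05, where 4.84% and 21.5% of all genes did. These comparisons share the mutant libraries with the main one. Between the control groups 0 of 7 passed and 1, Ago3, had an unadjusted p below 0.05, where 0.0706% and 14.0% of all genes did. Taken transcript by transcript, 0 of the 9 tested RefSeq transcripts of these genes passed, where 5.09% of 17847 transcripts did. On simulated data for mutants against all controls, limma called 51.9% of the genes given a log2 change of 1 and 91.3% of those given 2. The simulation changed 108 and 92 of 11338 genes, fewer than the 604 called in the data. Its shares are therefore not detection rates for the 7 genes.

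**Figure D2:**
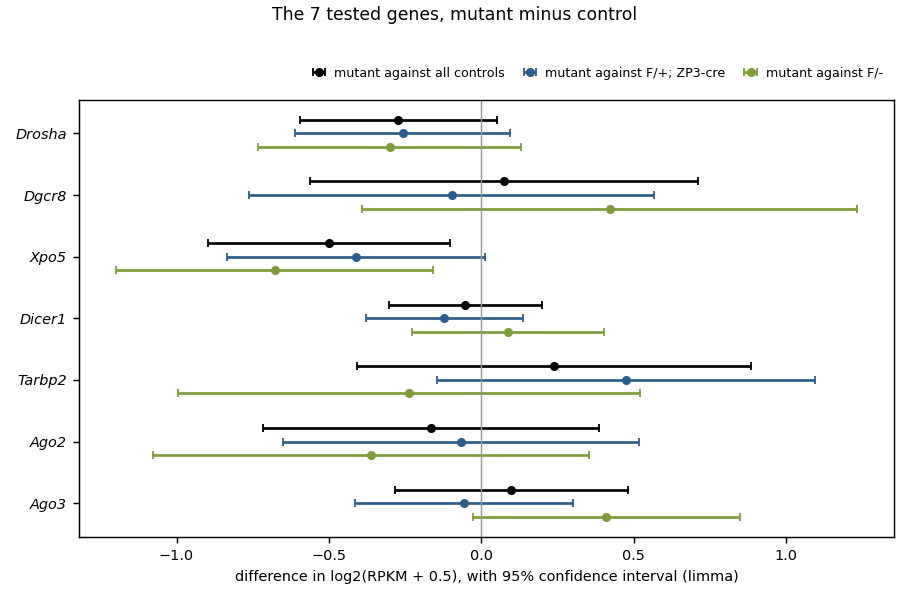
Difference in log2(RPKM + 0.5) between mutant and control oocytes for the 7 tested genes, with the 95% confidence interval from limma, against all controls (black), F/+; ZP3-cre (blue) and F/- (green). Most intervals include 0; those of Xpo5 against all controls (-0.90 to -0.10) and against F/- do not, and no difference passed after adjustment over all genes.

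Drosha encodes the ribonuclease of the microprocessor. It lies on chromosome 15 from 12824815 to 12935291 on the plus strand (GRCm38, for this and all genes below), and its pair of RefSeq transcripts carried nearly the same values. It stood at 12.7, 9.81, 11.3 and 14.9 RPKM in mutant replicates 1 to 4, at 15.0, 14.3, 13.6 and 15.2 RPKM in F/+; ZP3-cre and at 13.4 and 16.7 RPKM in F/-. In 3 of 4 mutants it was below every control, and mutant replicate 4 lay among the controls. Its log2(RPKM + 0.5) differed by -0.27 (95% interval -0.60 to 0.05, limma adjusted p = 0.348).

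Dgcr8 encodes the double-stranded RNA binding partner of DROSHA (chromosome 16 from 18253948 to 18289246, minus strand). Its mutant values of 3.02, 2.01, 4.29 and 3.09 RPKM spanned the 4 F/+; ZP3-cre values of 3.48, 3.04, 3.24 and 3.27. The F/- replicates differed from each other, at 1.24 and 3.44 RPKM, and the lower of them was the lowest of the 10 libraries. The log2 difference was 0.08 with a wide interval of -0.56 to 0.71 (limma adjusted p = 0.921), and it changed sign, to -0.11, without F/- replicate 1. Exons of Dgcr8 overlap those of Trmt2a on the opposite strand, at 2.09 ± 0.954 RPKM in mutants and 1.94 ± 0.649 in controls. The library kit does not mark strand, so reads from the overlap cannot be told apart.

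Xpo5 encodes exportin 5, the carrier of hairpin precursors (chromosome 17 from 46202782 to 46243598, plus strand), and had the largest difference among the 7. It stood at 13.4, 8.18, 12.5 and 8.32 RPKM in the mutants, at 13.3, 17.4, 12.6 and 12.8 RPKM in F/+; ZP3-cre and at 17.0 and 16.6 RPKM in F/-. In 3 of 4 mutants it was below every control, in replicate 3 by a small margin, and replicate 1 lay within the F/+; ZP3-cre range. Mutants averaged 10.6 ± 2.73 RPKM (SD, n = 4) and controls 15.0 ± 2.27 RPKM (SD, n = 6), a ratio of 70.8%.

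The log2 difference of Xpo5 was -0.50 (95% interval -0.90 to -0.10, unadjusted p = 0.0174), which did not pass after adjustment over all genes (limma adjusted p = 0.146). It was -0.41 against F/+; ZP3-cre (limma adjusted p = 0.277) and -0.68 against F/- (limma adjusted p = 0.126). Xpo5 passed in none of 20 alternative settings, in which the log2 difference lay between -0.62 and -0.29.

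Dicer1 encodes the ribonuclease that cuts hairpin and long double-stranded RNA into small RNAs (chromosome 12 from 104687742 to 104751952, minus strand). It stood at 74.5, 68.3, 82.2 and 69.3 RPKM in the mutants and at 80.0, 76.1, 81.9 and 81.5 RPKM in F/+; ZP3-cre. The F/- replicates were the lowest and the highest of the 10 libraries, at 57.6 and 82.7 RPKM, so that the mutants lay within the controls. The difference was -0.05 on the log2 scale with a 95% interval of -0.30 to 0.20 (limma adjusted p = 0.849), the narrowest interval of the 7. Relative to Drosha, the Dicer1 level was 4.29 to 7.26 times as high, 6.18 ± 1.18 in mutants and 5.22 ± 0.571 in controls.

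Tarbp2 encodes TRBP, the double-stranded RNA binding protein that sits with DICER when small RNAs are handed to an Argonaute (chromosome 15 from 102518192 to 102523676, plus strand). Its level was 1.49, 1.37, 1.52 and 2.09 RPKM in the mutants, 1.30, 0.871, 0.700 and 1.27 RPKM in F/+; ZP3-cre, and 2.42 and 1.60 RPKM in F/-. All 4 mutants were above all 4 F/+; ZP3-cre libraries, a separation that 17.3% of tested genes showed, and mutants and F/- overlapped. The log2 difference was 0.24 against all controls (95% interval -0.41 to 0.89, limma adjusted p = 0.709) and 0.48 against F/+; ZP3-cre (limma adjusted p = 0.405). Between the controls, F/- exceeded F/+; ZP3-cre by 0.71 (limma adjusted p = 0.391). Prkra, the gene for PACT, the related partner of DICER, was too low to test, at a mean of 0.0539 RPKM in mutants and 0.186 in controls.

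Of the Argonaute genes, Ago3 had most of the summed RPKM. The summed Argonaute level was 17.6 ± 3.34 RPKM in mutants and 17.2 ± 2.51 RPKM in controls, and 13.4 to 22.6 RPKM across the libraries. Ago3 made up 74.1% to 89.7% of that sum, 87.8% ± 1.57 in mutants and 83.9% ± 5.44 in controls. Ago2, whose product is the Argonaute that cuts RNA targets of endo-siRNAs, made up 8.72% to 23.0%, and Ago1 and Ago4 together 0.278% to 3.91%. These shares are of RPKM, so they depend on the annotated transcript length, which for Ago2 is 13800 bases. They do not give protein amounts.

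Ago2 (chromosome 15 from 73095844 to 73184935, minus strand) stood at 1.66, 2.67, 2.11 and 1.62 RPKM in the mutants, at 2.03, 2.55, 2.36 and 1.56 RPKM in F/+; ZP3-cre and at 2.34 and 3.08 RPKM in F/-. Mutants and controls overlapped across nearly their whole ranges. The log2 difference was -0.16 (95% interval -0.72 to 0.39, limma adjusted p = 0.771). Its exons overlap those of Chrac1 on the opposite strand, which stood at 0.145 ± 0.114 RPKM in mutants and 0.298 ± 0.323 in controls.

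Ago3 stood at 14.2, 19.6, 14.0 and 14.2 RPKM in the mutants, at 16.4, 17.4, 14.0 and 16.1 RPKM in F/+; ZP3-cre and at 13.1 and 9.91 RPKM in F/-. Mutant replicate 2 was the highest of the 10 libraries and the F/- replicates the lowest pair. The log2 difference was 0.10 against all controls (95% interval -0.28 to 0.48, limma adjusted p = 0.805) and fell to -0.02 without mutant replicate 2. Between the control groups Ago3 was lower in F/- by 0.47 on the log2 scale (log2 difference -0.47, unadjusted p = 0.0388), which did not pass after adjustment (limma adjusted p = 0.326).

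Ago3, Ago1 and Ago4 are neighbours on the minus strand of chromosome 4. Ago3 runs from 126331704 to 126429556, Ago1 from 126435012 to 126468583 and Ago4 from 126489541 to 126533472, with 5455 bases between Ago3 and Ago1 and 20957 bases between Ago1 and Ago4. Their levels differed widely in the same oocytes, at means of 14.9, 0.10 and 0.178 RPKM. The sequences around their starts, 250 bases before to 50 bases after the annotated start in RefSeq (GRCm38.p6), are shown because high and low neighbours share a feature, a start rich in the dinucleotide CG. They are written 5′ to 3′ along the gene's strand with each CG in capitals. CG reads the same on both strands.
Ago3, chr4:126429493-126429792, minus strand: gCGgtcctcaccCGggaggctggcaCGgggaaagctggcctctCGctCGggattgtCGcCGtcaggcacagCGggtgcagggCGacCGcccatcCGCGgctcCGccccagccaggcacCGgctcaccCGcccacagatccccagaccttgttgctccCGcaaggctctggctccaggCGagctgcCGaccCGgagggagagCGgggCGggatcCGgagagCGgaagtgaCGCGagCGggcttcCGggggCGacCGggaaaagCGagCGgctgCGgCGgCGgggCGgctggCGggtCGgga
Ago1, chr4:126468582-126468881, minus strand: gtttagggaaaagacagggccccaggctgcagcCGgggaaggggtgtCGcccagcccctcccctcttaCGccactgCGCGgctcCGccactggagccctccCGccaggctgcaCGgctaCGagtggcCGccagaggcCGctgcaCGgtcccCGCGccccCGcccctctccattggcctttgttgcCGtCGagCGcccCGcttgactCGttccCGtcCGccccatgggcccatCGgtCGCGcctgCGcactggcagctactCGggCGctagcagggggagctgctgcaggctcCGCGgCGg
Ago4, chr4:126533409-126533708, minus strand: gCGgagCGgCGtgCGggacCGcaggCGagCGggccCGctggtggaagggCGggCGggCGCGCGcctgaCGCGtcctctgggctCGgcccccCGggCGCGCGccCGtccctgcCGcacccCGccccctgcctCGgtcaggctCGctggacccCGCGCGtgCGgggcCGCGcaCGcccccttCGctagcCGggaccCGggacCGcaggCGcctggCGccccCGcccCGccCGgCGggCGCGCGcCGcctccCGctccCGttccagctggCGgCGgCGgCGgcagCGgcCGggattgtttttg

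The Ago3 window holds 37 CG, the Ago1 window 31 and the Ago4 window 54. A second annotated Ago1 start gives a window (chr4:126468534-126468833, not printed) that overlaps the first and holds 38 CG, more than 95% of promoter windows. Over 32851 mouse promoter windows of the same 300 bases, the median was 7 and 94.6% held a CG at all. Fewer CG than in the Ago3, Ago1 and Ago4 windows printed above stood in 94.4%, 89.4% and 99.7% of them. Windows were matched for 8 of the 9 genes and held 21 to 54 CG, with Tarbp2 at the low end and Dicer1 (49) near the high end. More CG did not always go with a higher level, since Ago4 had more than Ago3 at a lower level. The Dicer1 window lies at its annotated start and not at the alternative promoter in an intron. No DNA or histone methylation was measured in these libraries.

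Ago1 was the gene of the set in which mutants and Cre-carrying controls stood furthest apart in proportion, at very low levels. It stood at 0.00677, 0, 0.0203 and 0.00472 RPKM in mutant replicates 1 to 4 and at 0.151, 0.222, 0.311 and 0.128 RPKM in F/+; ZP3-cre. The F/- replicates split, at 0.00301 and 0.152 RPKM. All 4 mutants lay below all 4 F/+; ZP3-cre libraries, a separation that 7.62% of the 7953 genes under the filter showed, while F/- replicate 1 lay among the mutants, so that mutants and all controls overlapped. The mutant mean was 3.91% of the F/+; ZP3-cre mean of 0.203 ± 0.0823 RPKM (SD, n = 4).

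In estimated reads, on a transcript of 7227 bases, Ago1 had about 3, 0, 8 and 2 reads in the mutants, 13 in all. It had 67, 107, 127 and 64 in F/+; ZP3-cre, 365 in all, and 1 and 80 in F/-. The count of 0 in mutant replicate 2 allows up to 3 reads, or 0.00741 RPKM, by counting error alone, and amplified reads are not independent molecules. A lower level in a pool can reflect less of the transcript per oocyte or fewer oocytes that hold it, which cannot be told apart.

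Because its mean lay under the filter, Ago1 was tested apart, after its low values had been seen. Exact two-sided permutation tests of log2(RPKM + 0.5) gave p = 0.0333 against all controls and p = 0.02857 against F/+; ZP3-cre, the latter the smallest that 70 splits allow. Adjusted over the 4 tests of Ago1 and Ago4, both exact p-values were 0.0667. With no filter on low values (19291 genes), limma gave a log2 difference of -0.46 against F/+; ZP3-cre (adjusted p = 0.0468, where 2.64% of genes passed) and of -0.37 against all controls (adjusted p = 0.140, where 2.07% passed).

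The first of these calls was not stable. It passed in 4 of 14 further settings with no filter, and the adjusted p in limma ran from 0.0214 to 0.166. It was lost when any 1 of the 8 mutant or F/+; ZP3-cre libraries was left out (adjusted p 0.0642 to 0.130 in limma) and under median centring (0.166) or the replicate block (0.0956). Its direction was the same in all 14.

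Ago4, on a transcript of 6537 bases, was also under the filter but above Ago1 in 9 of 10 libraries. It stood at 0.0776, 0.393, 0.0590 and 0.0602 RPKM in the mutants, at 0.147, 0.263, 0.355 and 0.156 RPKM in F/+; ZP3-cre and at 0.0401 and 0.234 RPKM in F/-. In 3 of 4 mutants it was below all F/+; ZP3-cre libraries, but mutant replicate 2 was the highest of the 10 libraries. The estimated reads in that replicate were 144, against 31, 21 and 23 in the others. The exact permutation p was 0.4857 against all controls and 0.3714 against F/+; ZP3-cre.

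**Figure D3:**
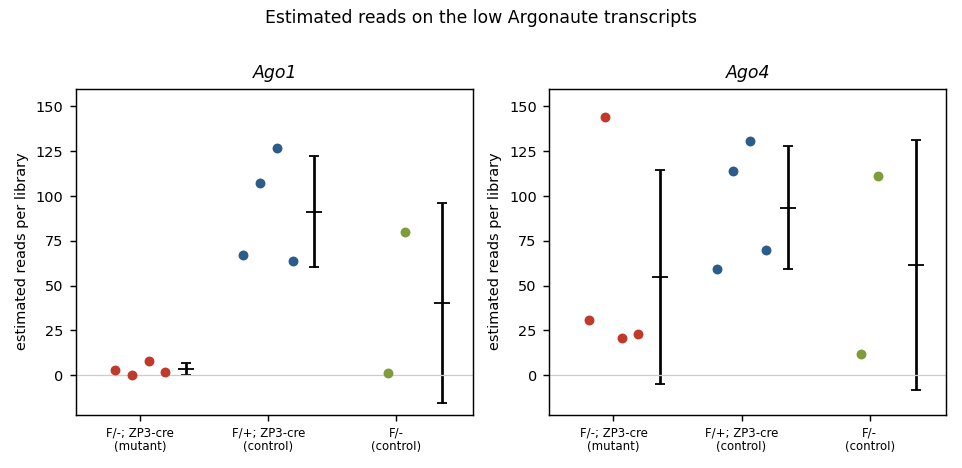
Estimated reads per library on the Ago1 and Ago4 transcripts (points) by genotype, with the mean and SD of each group. Ago1 has 0 to 8 reads in the mutants, 64 to 127 in F/+; ZP3-cre and 1 and 80 in F/-, while Ago4 in the mutants runs from 21 to 144.

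Other genes of the pathway were read from a list of 44 partners that covers processing factors, Argonaute cofactors and effectors, and enzymes that tail or shorten small RNAs and messenger RNAs. Of the 44, 41 were tested, and 2 were higher and 0 lower in mutants than in all controls, against 5.33% of all tested genes. Earlier results of these data were known when the list was made, so this count is descriptive. The median log2 difference was -0.08. None of the 15 tested processing factors passed, 1 of 18 effectors did (Trim71) and 1 of 8 tailing and decay enzymes did (Parn).

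Parn encodes a poly(A)-specific ribonuclease that trims messenger RNA tails and the ends of some small RNAs (chromosome 16 from 13537960 to 13668170, minus strand). It stood at 75.2, 85.7, 68.0 and 58.8 RPKM in the mutants, at 9.83, 9.62, 15.0 and 10.2 RPKM in F/+; ZP3-cre and at 12.6 and 5.68 RPKM in F/-. Every mutant was far above every control. Its mutant mean of 71.9 ± 11.4 RPKM was 6.85-fold the control mean of 10.5 ± 3.14 RPKM, a log2 difference of 2.76 (SE 0.22, limma adjusted p = 3.24e-06). Parn also passed against each control group, by 2.64 against F/+; ZP3-cre (limma adjusted p = 3.28e-05) and by 2.99 against F/- (limma adjusted p = 0.000122). In the mutants its level was close to that of Dicer1, which was 73.6 ± 6.37 RPKM there.

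Trim71 encodes a ubiquitin ligase and RNA binding protein known as a target of let-7 microRNAs (chromosome 9 from 114507133 to 114564369, minus strand). It stood at 21.2, 25.1, 19.9 and 31.4 RPKM in the mutants, at 14.2, 17.5, 14.4 and 12.5 RPKM in F/+; ZP3-cre and at 13.3 and 15.4 RPKM in F/-. As with Parn, all mutants were above all controls, a separation that 8.18% of tested genes showed in either direction. The log2 difference was 0.71 (SE 0.16, limma adjusted p = 0.0176), and it did not pass without mutant replicate 4 (limma adjusted p = 0.0558) or against F/- alone (limma adjusted p = 0.0677). Exons of C130032M10Rik, on the opposite strand, overlap those of Trim71.

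Partners with the next smallest p did not pass. Tsnax, the gene for translin-associated factor X of the endonuclease that clears passenger strands, stood at 34.6 ± 5.77 RPKM in mutants and 25.0 ± 0.894 in controls (limma adjusted p = 0.0591). Lin28b, whose product blocks let-7 processing, stood at 3.04 ± 1.02 and 5.49 ± 0.956 RPKM (limma adjusted p = 0.0749). For Cnot1, the scaffold of the main deadenylase, the means were 32.5 ± 2.39 and 40.8 ± 2.96 RPKM (limma adjusted p = 0.104). In Tsnax all mutants were above all controls, while in Lin28b and Cnot1 all mutants were below all controls by small margins.

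**Figure D4:**
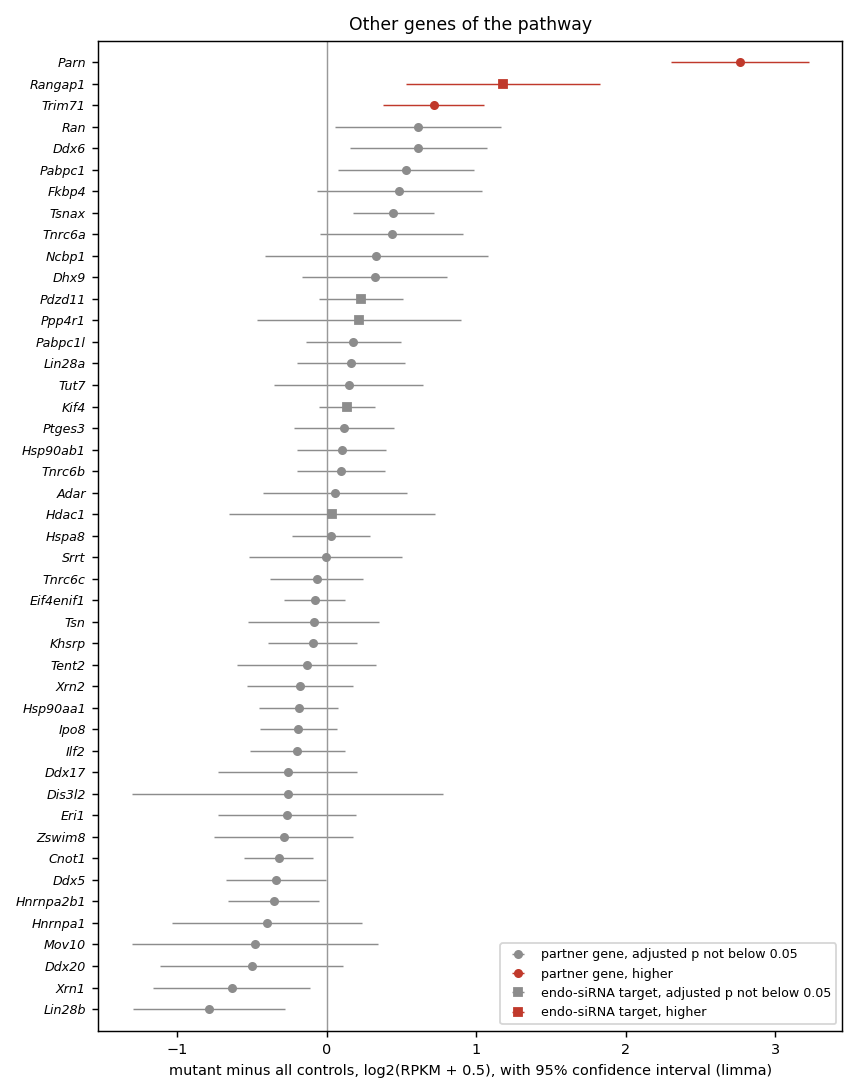
Difference in log2(RPKM + 0.5) between mutants and all controls for the tested partner genes but 1 (circles) and 5 genes matched by oocyte endo-siRNAs (squares), with 95% confidence intervals from limma; red marks an adjusted p below 0.05. Parn, at 2.76, stands apart from the rest, and Rangap1 and Trim71 are the other genes in red.

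Genes whose transcripts are known to be matched by endo-siRNAs in mouse oocytes were also read. Strand is not marked, and the treatment of reads that match several places is not stated. Reads from other RNAs of the same sequence thus cannot be told apart from reads of these genes. Of the 5 listed, Ppp4r1, Rangap1, Hdac1, Kif4 and Pdzd11, all were tested, 1 was higher and 0 were lower in mutants, against 5.33% of all genes. This list too was made with earlier results known, and its count is descriptive. Rangap1, the activator of the RAN GTPase, stood at 3.90, 10.5, 7.24 and 12.7 RPKM in the mutants, at 3.89, 3.38, 4.13 and 3.04 RPKM in F/+; ZP3-cre and at 1.95 and 3.29 RPKM in F/-. In 3 of 4 mutants it was above every control, and mutant replicate 1 lay within the controls. The log2 difference was 1.18 (SE 0.30, 95% interval 0.53 to 1.83, limma adjusted p = 0.0391).

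This call for Rangap1 passed in 9 of 20 alternative settings, with an adjusted p in limma between 0.00949 and 0.115, and it did not pass against F/+; ZP3-cre (0.0972) or F/- (0.0573) alone. Rangap1 (chromosome 15 from 81704248 to 81745530, minus strand) shares exon sequence with Zc3h7b on the opposite strand, which stood at 5.49 ± 3.51 RPKM in mutants and 6.11 ± 1.50 in controls. The other 4 did not pass. Their log2 differences were 0.13 for Kif4, 0.23 for Pdzd11, 0.21 for Ppp4r1 and 0.03 for Hdac1 (limma adjusted p = 0.437, 0.366, 0.758 and 0.970). Kif4 and Pdzd11 overlap each other on opposite strands of the X chromosome, so reads from the overlap cannot be told apart. Kif4 also has an annotated pseudogene, Kif4-ps. Pseudogenes were sought only under the gene's own name, so those of any listed gene under another name were not looked for. Kif4 encodes a kinesin of mitotic chromosomes and Hdac1 a histone deacetylase.

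For Dicer1 and Ago2, the genes with the most similar pattern over the 10 libraries were taken from 4032 genes that averaged 10 RPKM or more, as a description without a test. Eif5b, a translation initiation factor gene, was closest to Dicer1 (Pearson r = 0.92, Spearman rho = 0.90), followed by Rad21 (0.91 and 0.76) and Champ1 (0.88 and 0.43). Without F/- replicate 1 and mutant replicate 2, the libraries farthest from the median of Dicer1, r was 0.62, 0.62 and 0.52, so the likeness rested largely on these libraries. Lamp1 was closest to Ago2 (r = 0.87, rho = 0.79), with Krt84 also near (0.84 and 0.93). Without the 2 libraries farthest from the median of Ago2, these r were 0.85 and 0.82. The libraries share genotype groups and depth, which such correlations do not separate.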

How the data were processed

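The deposited values are RPKM of RefSeq transcripts, computed by the authors, in 1 table with 1 column per library. Per the labels' protocols, RNA from an RNeasy Micro kit was amplified with NuGen Ovation and made into libraries with a TruSeq DNA kit, so strand is not marked and amplification adds spread. Per the submitters' processing notes, bcl2fastq 1.8.3, STAR and mm10 were used. How reads were counted, and what was done with reads that match more than 1 place, is not stated in the labels.

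Each symbol was read from its transcript of highest mean RPKM. Genes that averaged 0.5 RPKM or more were tested on log2(RPKM + 0.5), which understates changes of low genes, with limma 3.58.1 (R 4.3.3, empirical Bayes trend, Benjamini-Hochberg adjustment over all tested genes). The main model set mutants against all controls, as the study's design groups them. A 3-group model gave the other contrasts. limma was tested on simulated data.

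Estimated reads came from the spacing of low RPKM with GENCODE M21 transcript lengths for 97.7% of rows. With these, 76.7% to 79.6% of low values lay within 0.1 of a whole read, so reads are approximate. No 2 libraries were identical.

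Named are all 9 genes, every partner past the threshold and the 4 with the smallest p among the others, all 5 endo-siRNA targets, and the 3 genes most like Dicer1 and Ago2. Predicted genes and small RNAs were left out of the last. Of the genes so named, 2 are not reported here. These genes and lists were chosen with earlier results of these data known. Alternatives covered the pseudocount, filter, scaling, spread, weights, replicate block and leaving out each library.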

Additional observations from a re-analysis of the deposited data

Results flagged for a closer look

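A library was listed here where, in a group of 4, its gap to the nearest other, as a share of the group's range, exceeded Dixon's 95% critical value. Over 21 genes, 42 groups were checked and 5 such libraries were found, where chance gives about 1 in 20 groups, or 2.1. Among the 9 genes of the report, 3 of 18 groups held one.

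Xpo5 in F/+; ZP3-cre replicate 2 was 17.4 RPKM, against 12.6 to 13.3 in the other 3 (gap 0.851 of the range). Ago3 in mutant replicate 2 was 19.6 RPKM, against 14.0 to 14.2 in the other 3 (0.965). The same library held the high Ago4 value of 0.393 RPKM, against 0.0590 to 0.0776 (0.944). Setdb1 in F/+; ZP3-cre replicate 4 was 52.5 RPKM, against 25.1 to 28.6 (0.873). Parn in F/+; ZP3-cre replicate 3 was 15.0 RPKM, against 9.62 to 10.2 (0.890).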

How the results depend on the processing

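In 20 alternative settings, no tested gene of the 7 passed against all controls. Against F/+; ZP3-cre the count went from 0 to 1 with no filter, where Ago1 enters the test. Signs changed for the smallest differences. Dgcr8 ran from -0.11 to 0.24 over the settings that leave out a library, negative without F/- replicate 1 (-0.11) and without mutant replicate 3 (-0.07). Ago3 was -0.14 with array weights, and without a library it ran from -0.016 (without mutant replicate 2) to 0.16, at -0.00197 without F/- replicate 2. Ppp4r1 ran from -0.13 (without mutant replicate 2) to 0.49. Hdac1 was -0.028 with median centring and between -0.067 and 0.25 without a library. The cause was not tested.

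The count of partners past the threshold was 2 and became 4 with quantile normalization, 5 with array weights and 2 to 5 without a library, the most without F/- replicate 2. Lin28b passed in 4 settings, Tsnax in 3 and Cnot1 in 3. Parn passed in 20 of 20 (2.59 to 2.87) and Trim71 in 19. Rangap1 was lost with no filter (adjusted p = 0.0934), quantile normalization (0.0512) and the replicate block (0.0675) in limma, and in 8 settings without a library. Over all genes the count of 604 became 399 with no filter, 1388 with array weights, 376 with the replicate block and 357 without F/+; ZP3-cre replicate 2.

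The groups share replicate numbers, but same-numbered libraries did not deviate together (correlations -0.046 to 0.031). The main model did not pair them. These correlations cannot show whether such libraries were collected or prepared together. With 2 F/- libraries, the deviations of that group mirror each other. With the replicate block 0 of the 7 genes and 2 partners passed. At this depth Ago1 and Ago4 in the mutants rest on 0 to 144 estimated reads.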
